A study of Mus musculus with 8 samples.

Results

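The motile cilia and axoneme genes described here are 33 genes for transcription factors of ciliogenesis, radial spokes, the central pair, axonemal dyneins and their assembly, tektins, kinases, other axonemal proteins and intraflagellar transport. They were chosen by function, but with earlier results of these data known. Each was represented by 1 probe set annotated to that symbol only. Where a gene had several, the probe set with the highest mean log2 signal over all arrays was used. The 33 genes were among 18193 genes that could be represented in this way. A motile cilium beats because dynein arms slide its microtubule doublets past each other, while radial spokes and a central pair of microtubules set the rhythm. The forkhead factor Foxj1 and the RFX factors switch on the genes for this machinery, the RFX factors through a DNA motif called the X-box. In the brain these cilia are borne mainly by the ependymal cells that line the ventricles, whereas astrocytes usually carry a primary cilium, which lacks most of the motility proteins but is built by the same intraflagellar transport.

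Optic nerves of C57BL/6 mice aged 35 to 45 days were kept for 3 days in vitro in an organotypic medium, with saline in the control group or with 20 mM lithium chloride in the lithium group, to ask how lithium acts on adult white matter and its astrocytes. RNA of 4 control and 4 lithium samples was hybridised to Affymetrix Mouse 430 2.0 arrays, which give a linear MAS5 signal per probe set. The labels give 6 nerves for each sample and do not say that the samples were separate cultures, so p-values reflect nothing beyond the spread among the 4 samples of a group, and that spread may be technical. The labels and the study's methods differ on the number of nerves and on the C57 substrain, so how many animals stand behind each group of 4 samples is not settled. The methods state that nerves were dissected with the retina attached. Each sample is RNA of a whole tissue, so that fewer cells of a type and less RNA per cell cannot be told apart.

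The arrays had median signals of 12.3 to 17.5. The highest signal among 27 control probe sets for poly-A transcripts of bacteria was 2.13 to 5.64 per array, and is used here as the level below which a gene was not above background on that array. The tissue label was checked against markers of its main cell types. All 8 measured astrocyte markers, among them Gfap and Aqp4, and all 5 measured oligodendrocyte markers, among them Mbp and Mog, exceeded a mean signal of 50. Control summed signals of the astrocyte markers were 7020 to 7301 and lithium sums were 6310 to 7527.

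Promoters, from 250 bases before to 50 bases after the RefSeq transcription start, were available for 28 of the 33 genes. The search covered both strands for the X-box palindrome (GTTNCC, 0 to 3 bases of any kind, then GGNAAC), its arm GTTGCC, which the palindrome can contain, and the forkhead core TGTTTAC. The arm was present in 14 of the 28 promoters (50%), the palindrome in 0 and the forkhead core in 2, those of Ak7 and Mlf1. Among all 27025 RefSeq genes with a promoter of that length, 14.1% held the arm, 0.936% the palindrome and 4.05% the forkhead core. The promoters of Rfx2, Rfx3 and Enkur are shown because these genes exceeded a mean signal of 50 and held a arm. That of Mlf1 is shown because the gene passed the test, and it was chosen after its values were seen. Sequences are on the gene's strand, 5′ to 3′, from RefSeq on GRCm38.p6, with capitals for the arm and the forkhead core. Rfx2 lies at chr17:56830959-56831258 (minus strand), Rfx3 at chr19:28011117-28011416 (minus strand), Enkur at chr2:21205316-21205615 (minus strand) and Mlf1 at chr3:67373847-67374146 (plus strand).
Rfx2: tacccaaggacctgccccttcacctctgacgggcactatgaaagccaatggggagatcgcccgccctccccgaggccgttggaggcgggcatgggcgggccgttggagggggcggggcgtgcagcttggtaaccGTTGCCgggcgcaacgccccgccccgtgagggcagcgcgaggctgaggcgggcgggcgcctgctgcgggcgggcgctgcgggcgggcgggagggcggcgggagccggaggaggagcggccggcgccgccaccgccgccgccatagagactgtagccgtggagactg
Rfx3: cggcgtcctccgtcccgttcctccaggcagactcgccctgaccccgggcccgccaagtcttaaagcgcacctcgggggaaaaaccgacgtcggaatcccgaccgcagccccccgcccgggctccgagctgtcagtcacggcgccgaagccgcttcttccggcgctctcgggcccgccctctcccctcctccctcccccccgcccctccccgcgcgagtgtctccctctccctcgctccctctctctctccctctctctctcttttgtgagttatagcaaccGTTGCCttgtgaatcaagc
Enkur: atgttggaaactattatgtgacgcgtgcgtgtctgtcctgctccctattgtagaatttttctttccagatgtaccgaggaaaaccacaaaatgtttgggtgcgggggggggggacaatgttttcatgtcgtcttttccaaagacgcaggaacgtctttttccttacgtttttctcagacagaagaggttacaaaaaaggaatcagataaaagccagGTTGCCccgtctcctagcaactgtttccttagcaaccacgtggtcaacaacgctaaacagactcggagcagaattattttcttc
Mlf1: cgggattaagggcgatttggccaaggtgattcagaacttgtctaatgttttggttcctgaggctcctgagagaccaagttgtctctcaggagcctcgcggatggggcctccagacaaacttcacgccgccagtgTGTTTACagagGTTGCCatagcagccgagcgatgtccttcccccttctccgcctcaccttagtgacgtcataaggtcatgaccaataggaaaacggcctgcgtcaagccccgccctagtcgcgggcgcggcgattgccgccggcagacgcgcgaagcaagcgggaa
In the Rfx2 promoter the arm began 116 bases before the start, and in the Enkur promoter 34 bases before it. The Rfx3 arm lay 32 bases after the start. In the Mlf1 promoter a forkhead core began 116 bases before the start and a arm 105 bases before it. These matches describe the letters in the window and are not measured binding sites.

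**Figure D1:**
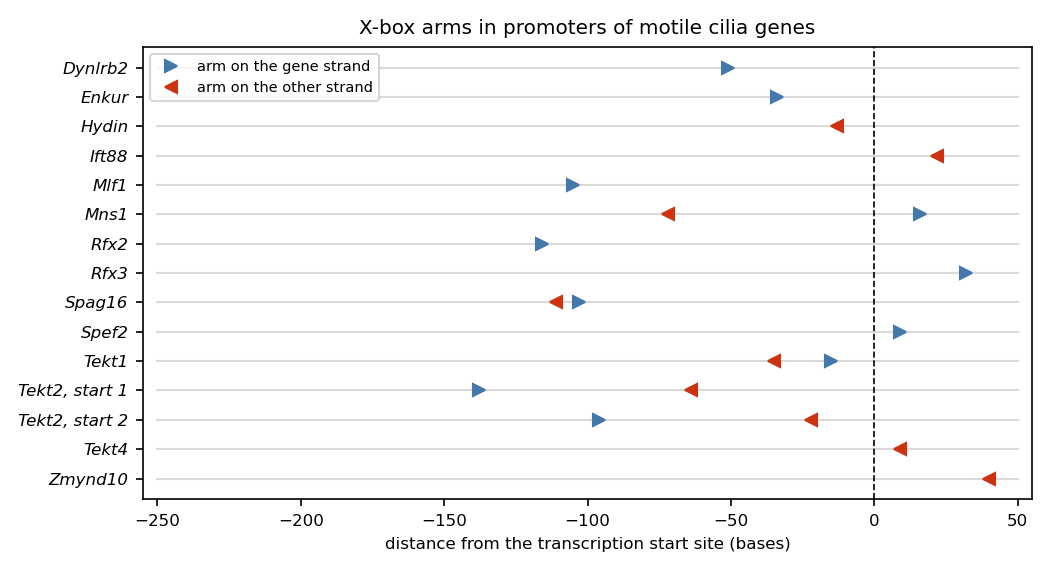
Positions of X-box arms in promoters of motile cilia and axoneme genes. The horizontal axis gives the distance from the transcription start site in bases, each line is a RefSeq promoter, right-pointing triangles are arms on the gene strand and left-pointing triangles are arms on the other strand. The 20 arms lie between 138 bases before and 40 bases after the start, and the overlapping windows of the Tekt2 starts hold the same arms.

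Of the 20 arms in 14 genes, counting those of Tekt2 from both of its starts, 11 were on the gene strand and 9 on the other strand. Within the last 100 bases before the start there were 9 of them, 6 lay after the start and 5 lay further upstream, with a median position 34.5 bases before the start. Besides the 4 promoters shown, arms were found for the central pair genes Spag16, Spef2 and Hydin, for Tekt1, Tekt2 and Tekt4, and for Dynlrb2, Zmynd10, Mns1 and Ift88.

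A mean signal of 50 in either group was exceeded by 6 of the 33 genes, namely Rfx2, Rfx3, Rsph9, Ccdc39, Enkur and Tppp3. Among all genes 52.7% exceeded it. Over all 8 arrays 5 of the 6 still had a mean above 50, and Rfx2 did not. Rfx2 and Enkur passed only through the lithium group and therefore had to be higher there. The gene nearest above the limit was Rfx2, with a lithium mean of 56.4, and the gene nearest below it was Foxj1, with a lithium mean of 45.4. The log2 difference, lithium minus control, was positive for all 6, with a median of 0.35, whereas it was positive for 52% of all genes over 50, whose median was 0.01. Rfx2 was the only gene of the 6 that passed the test, where 4.28% of all genes over 50 passed and 1.78% passed as higher. Rfx2 and Enkur had lithium signals wholly above control signals, as did 9.49% of all genes over 50.

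**Figure D2:**
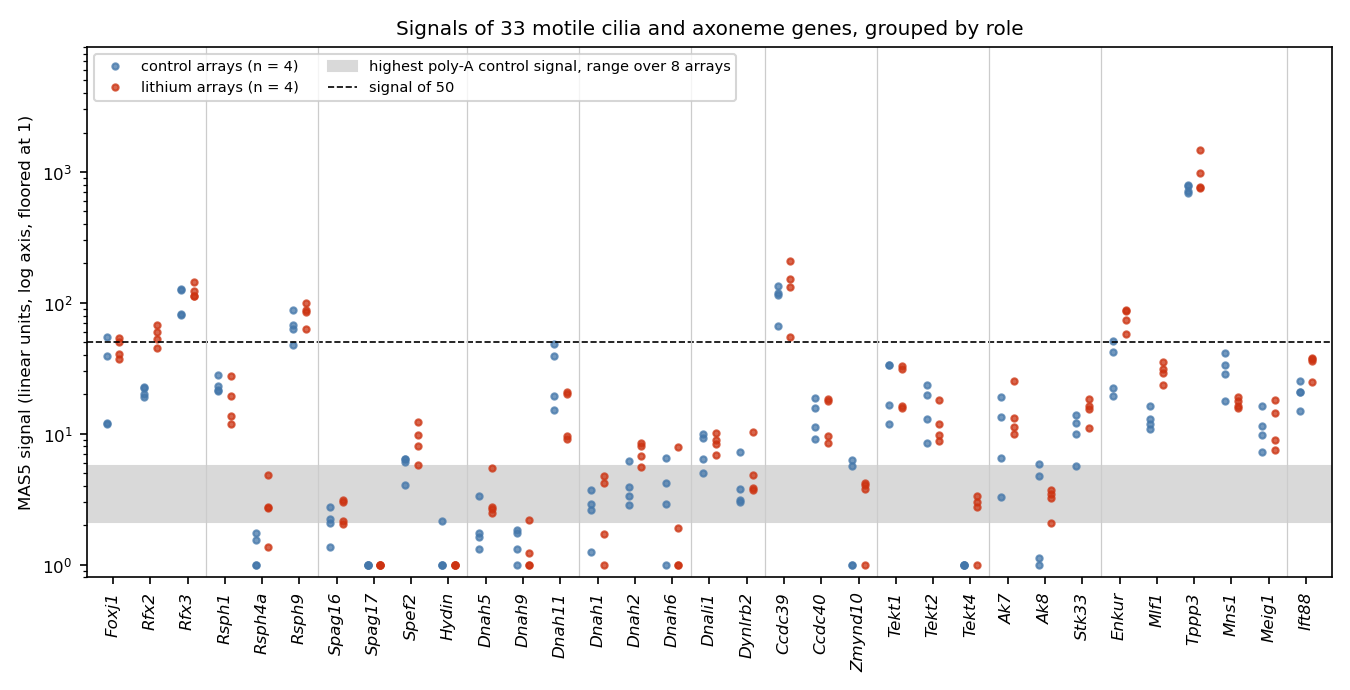
MAS5 signals of the 33 genes on each array, on a log axis floored at 1, grouped by role from transcription factors on the left to intraflagellar transport on the right. Blue points are 4 control arrays, red points 4 lithium arrays, the dashed line is a signal of 50 and the grey band is the range over arrays of the highest poly-A control signal, 2.13 to 5.64. Most genes lie below the dashed line, and lithium points lie wholly above control points for Rfx2, Enkur and Mlf1.

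Across the 33 genes, 2 rose with lithium at an adjusted p under 0.05 (Rfx2 and Mlf1), 0 fell and 31 did not pass (limma, Benjamini-Hochberg over all probe sets). Of all genes 3.23% passed, 1.18% as higher and 2.05% as lower. Before adjustment 8 of the 33 had a p under 0.05 by limma, 7 higher and 1 lower, which is 24.2% beside 22% of all genes. Out of all 18193 genes, 9.38% had such a p and were higher. The log2 difference was positive for 23 genes, negative for 9 and 0 for Spag17, whose signals all lay below the floor, and its median was 0.31 beside -0.00 over all genes. The median was 0.12, with 20 genes positive, without control sample 1, and 0.09 when log2 of the signal plus 16 was taken in place of the floor. Within arrays 1 and 2 it was 0.19 and within arrays 3 and 4 it was 0.39. A positive difference was thus found for 69.7% of the 33 genes and for 47.3% of all genes. Lithium signals lay wholly above control signals for 3 genes, Rfx2, Enkur and Mlf1, or 9.09% beside 6.47% of all genes, and wholly below them for 0 beside 8.92%. A block of the replicate number was run because samples of the same number deviated together, although samples of the same pair of arrays did so too. With this block 0 of the 33 passed with limma, while 4605 of all genes had an unadjusted p under 0.05 and 0.396% of all genes passed.

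**Figure D3:**
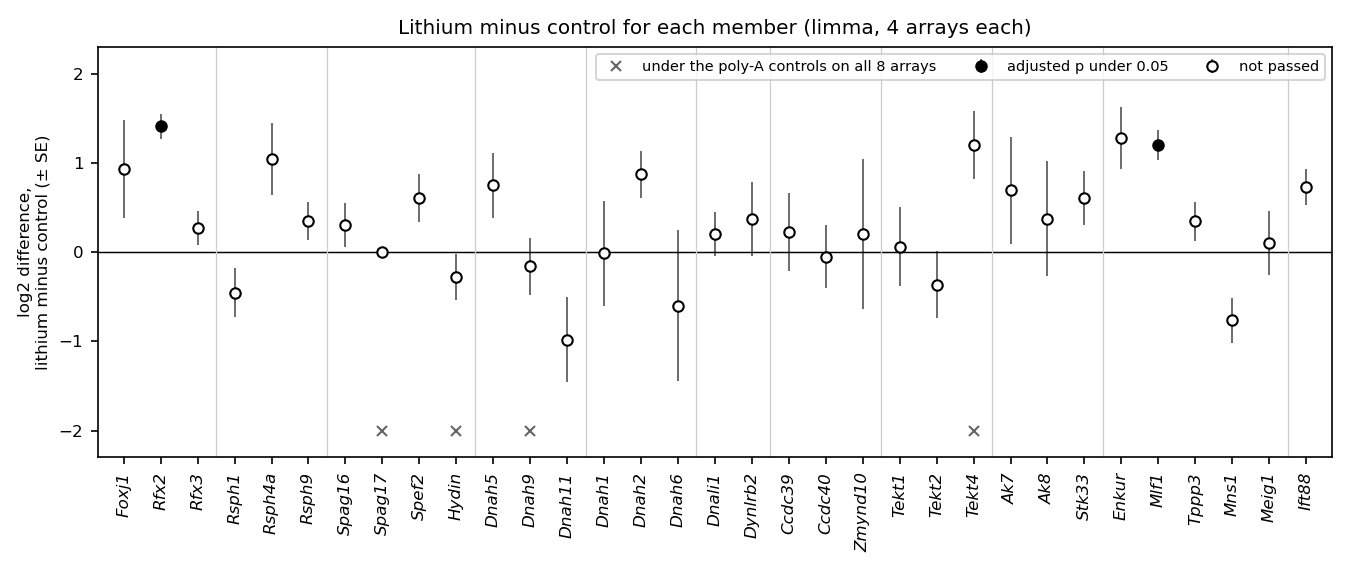
Log2 difference, lithium minus control, for each of the 33 genes with its standard error from limma (4 arrays in each group), ordered by role. Filled points are the 2 genes with an adjusted p under 0.05, Rfx2 at 1.41 and Mlf1 at 1.20. A cross at the bottom marks 4 genes that were under the poly-A controls on all 8 arrays, whose differences are not above background. Rsph4a and Dnah5 were under them on all control arrays and Spag16 and Ak8 on all lithium arrays.

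Among the 3 transcription factors, Rfx2 rose. Its signals were 22.9, 20.0, 22.3 and 19.1 in control samples 1 to 4 and 60.0, 44.9, 53.1 and 67.8 in lithium samples 1 to 4. The lowest lithium sample was well above the highest control sample, and the control samples lay close together. The group means were 21.1 ± 1.80 and 56.4 ± 9.76 (SD, n = 4), a log2 difference of 1.41 ± 0.14 (SE) or 2.66-fold, with an adjusted p of 0.0139 by limma. With the replicate number as a block the adjusted p was 0.0607, so that the call was lost. It held when any single array was left out, with a highest adjusted p of 0.0459 by limma.

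Rfx2 was read by 3 further probe sets. On another of them the mean signal was 5.96 ± 1.90 in control and 37.6 ± 14.0 in lithium samples (SD, n = 4), a log2 difference of 2.62 with an adjusted p of 0.0317 by limma, and the groups did not overlap. On the next the mean signals were 1.80 ± 2.16 and 24.0 ± 14.3, with the 4 control samples under the poly-A controls. Lithium sample 1 was low on this probe set, at 3.69 against 24.0 to 34.1 in the other lithium samples, so that the groups overlapped (adjusted p = 0.0974 by limma). On the last signals were 0.765 to 4.15 in control and 2.00 to 5.26 in lithium samples, and the groups overlapped. It was under the poly-A controls in control samples 1, 2 and 3 and in lithium samples 1 and 4, so no direction is read from it. The test was passed on 2 of the 4 probe sets.

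**Figure D4:**
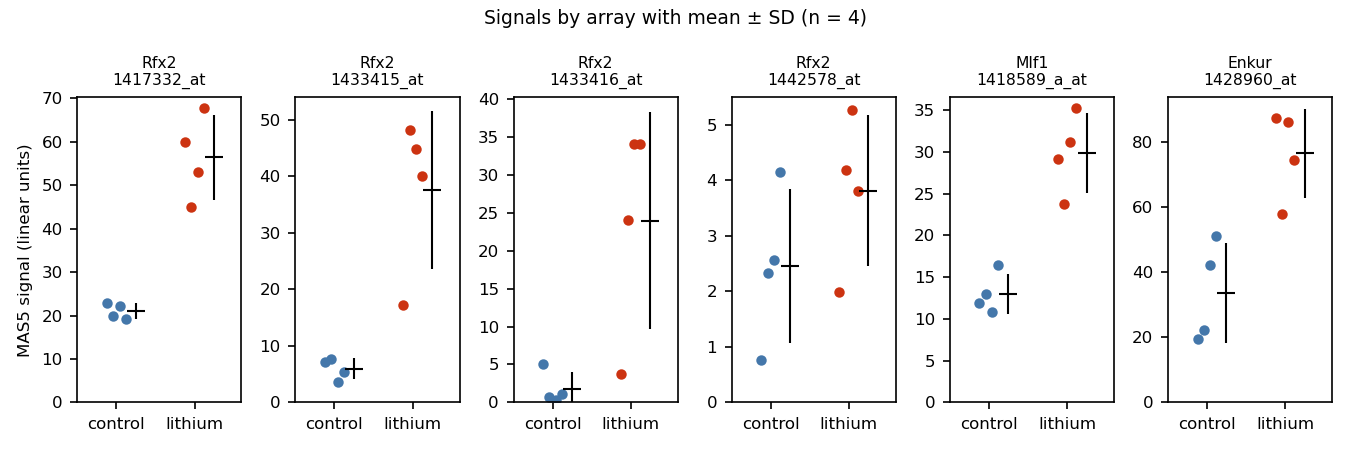
MAS5 signals on linear axes for the 4 probe sets of Rfx2 and the probe sets of Mlf1 and Enkur, which were the genes whose groups did not overlap. Points are arrays, blue for control and red for lithium, and the black bars are the mean and SD of 4 arrays. Each panel has its own axis starting at 0, and the groups overlap in the third and the fourth panel.

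Rfx3, which like Rfx2 binds the X-box, had signals of 125, 127, 82.7 and 80.1 in control samples 1 to 4 and of 112, 143, 122 and 114 in lithium samples. Control samples 1 and 2 stood with the lithium samples, while 3 and 4 were lower, and the groups overlapped. The log2 difference was 0.27 ± 0.19 (SE; adjusted p = 0.538 by limma) on this probe set. The other probe set of Rfx3 was under the poly-A controls on all 8 arrays, and averaging it in gave -0.15. Foxj1, the forkhead factor that directs motile ciliogenesis, had signals of 39.0, 55.3, 12.1 and 11.8 in control and of 54.2, 49.99, 37.1 and 40.4 in lithium samples. Samples 1 and 2 of the control group were at the level of the lithium samples and samples 3 and 4 far below, so the difference of 0.93 ± 0.55 (SE) did not pass (adjusted p = 0.450 by limma). Foxj1, like Mns1, Ift88 and Dnah11, is given by sample although it was below 50 and did not pass, a choice made after its values were seen.

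Of the 3 radial spoke genes and 4 central pair genes none passed the test with limma, and 1 of the 7, Rsph4a, had an unadjusted p under 0.05. Rsph9, a protein of the spoke head, had signals of 62.9, 47.6, 88.7 and 67.6 in control and of 84.5, 63.7, 88.5 and 99.3 in lithium samples. The groups overlapped, with a log2 difference of 0.35 ± 0.22 (SE; adjusted p = 0.476 by limma). Rsph1 had means of 23.6 and 18.1 and a log2 difference of -0.45. For Rsph4a each control signal lay under the poly-A controls, and the lithium mean of 2.91 was too close to them for a fold. The central pair genes Spag17 and Hydin were under the poly-A controls on all 8 arrays and Spag16 on all lithium arrays, while Spef2 had means of 5.75 ± 1.12 and 8.95 ± 2.74 (SD, n = 4), and its groups overlapped.

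None of the dynein genes passed the test with limma, and 1 of 8, Dnah2, had an unadjusted p under 0.05. The outer arm heavy chain gene Dnah11 had signals of 19.3, 15.3, 39.3 and 48.3 in control and of 9.15, 9.63, 20.9 and 20.1 in lithium samples. In both groups samples 1 and 2 were lower than 3 and 4, each lithium sample was below the control sample of the same number, and the groups overlapped (log2 difference -0.98 ± 0.48 SE, adjusted p = 0.355 by limma). The other outer arm heavy chains were at background, Dnah9 on all 8 arrays and Dnah5 on all control arrays. Among inner arm heavy chains, Dnah2 had means of 4.09 ± 1.47 and 7.26 ± 1.32 (SD, n = 4) with a log2 difference of 0.87 (adjusted p = 0.141 by limma), whereas Dnah1 and Dnah6 had differences of -0.01 and -0.60. Dnah1 and Dnah6 were under the poly-A controls in samples 1 and 2 of both groups, and Dnah6 also in lithium sample 4. No direction is read from these 2 genes. Dnali1, a light intermediate chain of the inner arms, and Dynlrb2, a light chain of the roadblock family, had differences of 0.20 and 0.37.

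Ccdc39 forms with Ccdc40 the ruler that spaces the dynein arms and spokes along a doublet. Its signals were 66.6, 115, 134 and 118 in control and 54.8, 131, 151 and 210 in lithium samples. Both groups had their lowest value in sample 1, and they overlapped throughout. The log2 difference was 0.23 ± 0.44 (SE; adjusted p = 0.854 by limma), and it became -0.030 without lithium sample 4. The name of this probe set ends in _s_at. The other probe sets of Ccdc39, whose names do not, had control means of 6.51 and 1.49, the lower of them under the poly-A controls on all control arrays. Ccdc40 had a difference of -0.05, and Zmynd10, which helps to assemble dynein arms in the cytoplasm, one of 0.21 ± 0.84 (SE). Zmynd10 was under the poly-A controls in samples 1 and 2 of both groups, so no direction is read from it.

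Among the tektins, filament proteins inside the doublet, none passed with limma and 1 of 3, Tekt4, had an unadjusted p under 0.05 but was under the poly-A controls on all 8 arrays. Tekt1 and Tekt2 had log2 differences of 0.06 and -0.37. The adenylate kinase gene Ak7 and the kinase gene Stk33 had differences of 0.69 and 0.61. The adenylate kinase gene Ak8 was under the poly-A controls on all lithium arrays, and no difference is given for it. Of these 3 genes 0 were under an unadjusted p of 0.05, and none passed with limma.

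Mlf1 rose among the 5 other axonemal or associated genes. It was first described in leukaemia and is also made in ciliated cells. Its signals were 11.9, 13.0, 10.9 and 16.4 in control and 29.1, 23.7, 31.1 and 35.3 in lithium samples. Every lithium sample was above every control sample. The means were 13.0 ± 2.40 and 29.8 ± 4.80 (SD, n = 4), and the log2 difference was 1.20 ± 0.17 (SE) or 2.29-fold, with an adjusted p of 0.0255 by limma. The adjusted p was 0.0635 with the replicate block. Without control sample 1, 2 or 3, or without lithium sample 1, 3 or 4, the gene did not pass (adjusted p = 0.0504 to 0.0769 by limma), and it passed without control sample 4 or lithium sample 2.

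Enkur, which encodes enkurin, a protein of the axonemal doublets, had signals of 19.4, 22.3, 42.1 and 51.1 in control and of 87.5, 58.0, 86.0 and 74.4 in lithium samples. The groups did not overlap, but control samples 1 and 2 were well below 3 and 4. The means were 33.7 ± 15.4 and 76.5 ± 13.6 (SD, n = 4), and the log2 difference of 1.28 ± 0.35 (SE) did not pass (adjusted p = 0.113 by limma). With a term for arrays 1 and 2 against arrays 3 and 4, the adjusted p was 0.0442 by limma. The difference was 1.78 within arrays 1 and 2 and 0.79 within arrays 3 and 4.

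Tppp3, a tubulin-binding protein that promotes microtubule assembly, had signals of 696, 715, 800 and 787 in control and of 1465, 765, 976 and 748 in lithium samples. Lithium sample 1 was far above the rest, and the groups overlapped (log2 difference 0.35 ± 0.22 SE, adjusted p = 0.484 by limma). Without lithium sample 1 the difference was 0.14. Mns1, a filament protein inside the doublet, went the other way, with signals of 17.9, 33.3, 41.6 and 28.8 in control and of 19.2, 15.7, 17.8 and 16.2 in lithium samples. Its difference of -0.76 ± 0.25 (SE) did not pass (adjusted p = 0.176 by limma), and control sample 1 lay among the lithium samples. Meig1, which is needed to build the sperm tail, had a difference of 0.10.

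Ift88, a core protein of intraflagellar transport that both motile and primary cilia need, had signals of 14.9, 20.9, 25.1 and 20.9 in control and of 24.8, 37.2, 37.8 and 35.7 in lithium samples. Only lithium sample 1 reached into the control range, and the difference of 0.73 ± 0.20 (SE) did not pass (adjusted p = 0.119 by limma).

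A wider list of motile cilia genes and a list of ciliary transport genes were measured in the same way. Of the wider list 99 of 125 genes had a probe set, and 3 rose, 1 fell and 95 did not pass, or 4.04% called beside 3.23% of all genes, with a median log2 difference of 0.25. Of those 99 genes 64, or 64.6%, had a positive difference, beside 47.3% of all genes. A mean signal of 50 in either group was exceeded by 17 of them, of which 10 had a positive difference, beside 52% of all genes over 50. Of the transport genes 40 of 42 had a probe set, and 32 exceeded 50. With limma 0 rose, 1 fell and 39 did not pass, or 2.5% called beside 3.23% of all genes. At an unadjusted p under 0.05 by limma 7 were higher and 3 lower, or 25% beside 22% of all genes. The median log2 difference of the transport genes was 0.14. With the replicate block none of either list passed with limma.

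Drc1, a protein of the nexin-dynein regulatory complex that links the doublets, had signals of 5.30, 10.3, 6.25 and 6.22 in control and of 61.3, 25.2, 29.0 and 24.7 in lithium samples. The groups did not overlap, and lithium sample 1 stood above the other lithium samples. The log2 difference was 2.26 ± 0.35 (SE; adjusted p = 0.0325 by limma, 0.101 with the block), and the gene did not pass when any array other than lithium sample 1 was left out (adjusted p = 0.0504 to 0.0893 by limma). Efcab12 had signals of 2.85, 2.04, 1.61 and 2.37 in control and of 6.74, 5.95, 7.82 and 6.85 in lithium samples, with no overlap. Control samples 1, 2 and 3 were under the poly-A controls of their arrays, so the size of its fitted difference of 1.65 depends on signals at background, and it was 0.33 with log2 of the signal plus 16. The adjusted p was 0.0162 by limma and 0.0689 with the block, and it passed with any single array left out but not with its probe sets averaged (0.71, adjusted p = 0.196 by limma).

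Ccdc146 also passed (adjusted p = 0.0367 by limma, 0.0564 with the block), but its signals of 0.139 to 1.41 in control and 1.76 to 2.39 in lithium samples were all under the poly-A controls, so no fold is given. Wdr63, an intermediate chain of inner arm dynein, fell from 4.89 ± 0.835 to 2.60 ± 0.306 (SD, n = 4; adjusted p = 0.0388 by limma, 0.0877 with the block). Its lithium signals were all under the poly-A controls. So were control samples 1 and 2, at 5.61 and 3.68 against 5.64 and 3.74, and no fold is given for Wdr63. It did not pass with quantile normalisation, median centring, log2 of the signal plus 16 or trended variance (adjusted p = 0.0917 to 0.117 by limma). Leaving out any array ended the call of Ccdc146 except control sample 3, with adjusted p values of 0.0518 to 0.0991 by limma, and that of Wdr63 except control sample 2, with values of 0.0641 to 0.105.

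In the transport list Hspb11, known as Ift25 and a part of the intraflagellar transport complex, fell. Its signals were 204, 197, 174 and 201 in control and 98.3, 92.1, 118 and 121 in lithium samples, with no overlap. The log2 difference was -0.86 ± 0.11 (SE), with an adjusted p of 0.0206 by limma and 0.0795 with the block. The call was lost on leaving out control sample 1, 2, 3 or 4 or lithium sample 1 (adjusted p = 0.0525 to 0.0662 by limma).

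**Figure D5:**
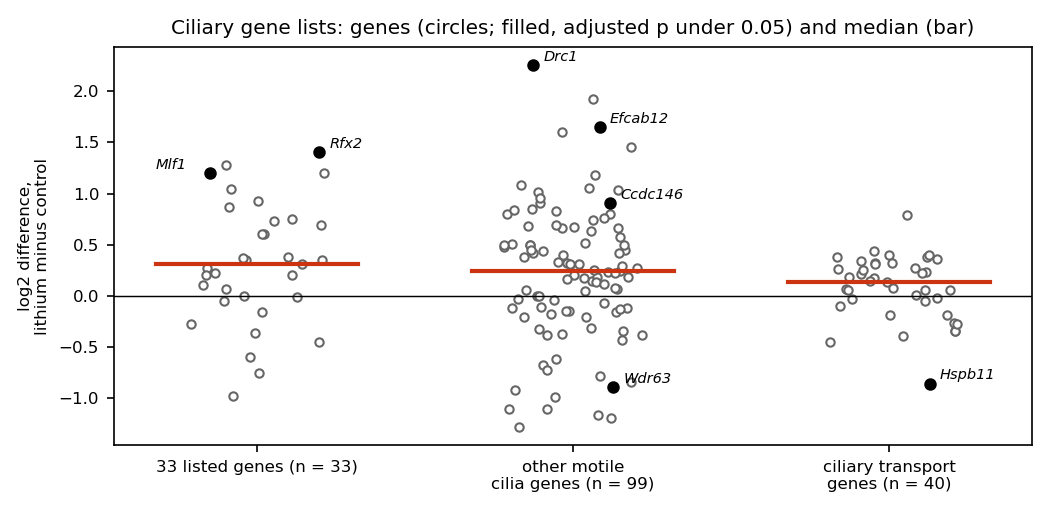
Log2 difference, lithium minus control, of each measured gene in 3 lists, with the list's median as a red bar. Open circles are genes that did not pass and filled circles are genes with an adjusted p under 0.05, named beside them. The medians are 0.31 for the 33 genes, 0.25 for the 99 other motile cilia genes and 0.14 for the 40 ciliary transport genes, beside -0.00 for all genes.

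The promoters of the wider list held the arm in 50 of 100 genes (50%), the palindrome in 7 (7%) and the forkhead core in 6 (6%). Those of the transport list held the arm in 14 of 37 genes (37.8%), the palindrome in 3 (8.11%) and the forkhead core in 0.

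Markers of cells that bear motile cilia, or that the dissection could have carried along, were summed on each array. The 5 ependymal markers outside the axoneme all had negative log2 differences, with a median of -0.35 and none passing with limma (1 had an unadjusted p under 0.05). Among them Mia was under the poly-A controls on all lithium arrays, so its direction is not read. Their sums were 2752 to 3332 in control and 1935 to 2518 in lithium samples. The highest means were those of Rarres2 (1335 and 991) and Cd24a (1009 and 919). Whether these signals come from ependymal cells was not tested. Choroid plexus markers, 8 of 9 measured and none over 50, summed to 22.6 to 32.1 in control and 17.1 to 110 in lithium samples, with Ttr at 65.7 in lithium sample 1. Photoreceptor and retina markers, 11 of 13 measured, had sums of 110 to 138 and 106 to 128, with Crx, Nrl and Prph2 at 3.33 or less on every array. In the same list Rom1 had means of 65.2 and 58.7, Sag of 16.7 and 16.8, and Pax6 of 16.96 and 15.8.

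Retinal ganglion cell markers, 6 of 7 measured, had sums of 174 to 251 in control and 121 to 214 in lithium samples. The 7 spermatogenic markers, cells that also build an axoneme, had sums of 53.6 to 65.7 and 53.0 to 74.0. The 6 airway epithelium markers had sums of 26.6 to 294 in control and 16.6 to 40.5 in lithium samples, the high control values coming from Krt5 and Epcam, while Scgb1a1 and Scgb3a2 were at 2.47 or less throughout.

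Oligodendrocyte marker sums were 8076 to 8528 in control and 7972 to 10912 in lithium samples, and microglia sums were 593 to 842 and 472 to 745 from 5 of 6 markers. The 7 meningeal fibroblast markers had a median log2 difference of -1.21 and sums of 4021 to 4779 in control and 2674 to 3571 in lithium samples, and Lum and Igfbp2 fell (adjusted p = 0.0469 and 0.0429 by limma). Neither passed with the replicate block (0.125 and 0.0686) or with any single array left out (0.0548 to 0.123). No marker of the other 9 lists passed with limma, and 7 had an unadjusted p under 0.05. The part of these cells in the differences of the ciliary genes was not tested.

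Arrays 1 and 2 were compared with arrays 3 and 4 within each group. Of the 29 genes not under the poly-A controls on all 8 arrays, control samples 1 and 2 were both below control samples 3 and 4 for 15 and above them for 4, beside 28.7% and 27.1% of all genes. Those shares cover all 18193 genes, including genes under the poly-A controls, so they are not matched to the 29 genes. Lithium samples 1 and 2 were below 3 and 4 for 14 genes and above them for 3, and 9 genes were lower in samples 1 and 2 of both groups. No share over all genes was computed for these lithium and joint counts, so they are not read as particular to the ciliary genes. The labels name no batch. Within arrays 1 and 2 the log2 differences of Rfx2 and Mlf1 were 1.28 and 1.08, and within arrays 3 and 4 they were 1.54 and 1.31. The part of this split in the other differences was not tested.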

How the data were processed

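Total RNA of cultured optic nerves was measured on 8 arrays. The authors made the deposited intensities with MAS5 on a linear scale, scaled to a trimmed mean (2% trimmed, target 100), in GeneSpring GX 12. Scaling sets signals relative to each array's total. The number of arrays limits the precision.

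After flooring at 1, log2 intensities were compared between lithium and control in limma 3.58.1 (lmFit, eBayes; R 4.3.3) with no block, as the study's methods name none. Benjamini-Hochberg adjustment ran over 45037 probe sets, without 64 control probe sets, and a gene passed at an adjusted p under 0.05. Probe sets with 1 symbol (34958) gave 18193 genes. Figures were drawn with matplotlib 3.10.9, and the fit was tested on simulated data. Groups came from the labels.

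Sample numbers were checked for pairing by the correlation of deviations from the group means. All 4 same-numbered pairs exceeded 0.1 (0.130 to 0.197), samples of the same pair of arrays gave 0.071 to 0.131, and other pairs gave -0.181 to -0.066. The highest value for samples of the same pair of arrays, 0.131, exceeded the lowest for the same number, 0.130. The correlations therefore cannot tell pairing by number from a split between pairs of arrays, and the labels name no pairs. The main calls come from the fit without a block. The replicate block was run as an alternative, and the blocked value is given where it changes a call.

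Members and lists were chosen with earlier results of these data known. Values by sample are given for members over a mean signal of 50 in either group or past the adjusted p, and for up to 4 genes in each direction of the other lists that passed. No fold is given where a whole group was under the poly-A controls. Promoters of RefSeq (GRCm38.p6) matched by symbol 28 of 33 members, 100 of 125 other motile cilia genes and 37 of 42 transport genes, and those of Foxj1, Tppp3, Rsph1, Rsph4a and Stk33 were not used here. Alternatives covered normalisation, floor, probe set choice, variance, array weights, pairing, low signals and leaving out each array.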

Additional observations from a re-analysis of the deposited data

Results flagged for a closer look

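In groups of 4 arrays, a highest or lowest array was counted as far from the others when its gap to the nearest exceeded Dixon's critical share of the group's range, and 5 of 68 groups checked met this, where chance gives about 1 in 20. Drc1 was at 61.3 in lithium sample 1, with the other lithium samples at 24.7 to 29.0. Ift88 was at 24.8 in lithium sample 1, below 35.7 to 37.8 in the other lithium samples. Spef2 was at 4.09 in control sample 1, below 6.08 to 6.45 in the other control samples. Dnah5 was at 5.49 in lithium sample 3, above 2.46 to 2.74 in the others. Zmynd10 was at 0.791 in lithium sample 2, below 3.81 to 4.18 in the others. Lithium samples 1, 2 and 4 of Dnah5 and 1 and 2 of Zmynd10 were under the poly-A controls, as was control sample 1 of Spef2. The gaps of these genes thus include signals at background.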

How the results depend on the processing

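The median log2 difference of the 6 genes over 50 ranged from 0.31 to 0.48 over 18 alternatives. Rfx2 and Enkur are among the 6 through their lithium signals, and trended variance, the replicate block and the array-pair term cannot move a difference in this balanced design, so this range is no sign of stability. The number of genes over 50 was 11 with a limit of 25 and 3 with a limit of 100. It was 5, without Ccdc39, when probe sets with names ending in _x_at or _s_at were left out. With the replicate block, 0 of the 33 genes were higher (main count 2), 0 of the other motile cilia genes were higher (3) and 0 lower (1), and 0 of the transport genes were lower (1). A term for arrays 1 and 2 against 3 and 4 gave 3 of the 33 genes higher (main count 2) and 1 lower (0). In that fit 7 of the other motile cilia genes were higher and 2 lower, and 1 transport gene was higher (0) and 2 were lower. Of all genes 8.71% passed in that fit, beside 3.23% in the main fit. Testing only probe sets with a mean of at least 50 left 1 of 5 members (Enkur) and 0 of 16 other motile cilia genes higher. It ran on fewer genes, of which 8.83% passed. Median centring gave 7 other motile cilia genes higher and 0 transport genes lower, with 3.19% of all genes passing. Array weights gave 5 other motile cilia genes higher, with 3.65% of all genes passing. Averaging probe sets gave 0 transport genes lower, with 4.33% of all genes passing. Leaving out 1 array gave 1 to 2 of the 33 genes higher, 1 to 2 other motile cilia genes higher and 0 to 1 lower, and 0 to 1 transport genes lower. Of all genes 0.517% to 1.89% passed in those fits. The cause of these differences was not tested. Rfx3 turned to -0.15 on averaging in a probe set under the poly-A controls on all 8 arrays, and Ccdc39 to -0.030 without lithium replicate 4, with a range of -0.030 to 0.62 when each array was left out. Genes under the poly-A controls, 4 of the 33 on all arrays, could not be compared at this signal.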
